A study of Mus musculus with 6 samples.

Results

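The genes described here are the matrix metalloproteases, the ADAM and ADAMTS proteases and their tissue inhibitors in mouse muscle satellite cells. They were chosen by symbol alone: every symbol in both expression tables that reads Mmp, Adam or Adamts with a number, or Timp1 to Timp4. That gave 79 genes out of 24067 symbols in both tables, made up of 23 MMPs, 33 ADAMs, 19 ADAMTS genes and 4 TIMPs. Polyadenylated RNA was sequenced from 4 libraries of adult satellite cells, the resident stem cells of muscle. Activated satellite cells (ASC) had been cultured for 36 h and gave 1 Yy1 iKO and 1 WT library, and freshly isolated satellite cells (FISC) gave another Yy1 iKO and another WT library. YY1 is a zinc finger transcription factor, and the series further holds 1 list of YY1 binding peaks from ASC labelled C57, called against 1 input. The labels give no age or sex, no driver or timing of the knockout, and no number of animals per library. With 1 library per group there was no replicate error and no test, so every difference below is between single libraries.

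MMPs are zinc-dependent proteases that cut collagens, laminins and other matrix proteins, and most are made as inactive precursors. ADAMs are mostly membrane proteins that release the outer parts of other membrane proteins, a step called shedding, whereas ADAMTS proteases are secreted and cut proteoglycans or trim procollagens. TIMPs bind the catalytic zinc of these enzymes and block them. In muscle, such proteases remodel the basal lamina that encloses the satellite cell, and ADAM shedding is a step of Notch signalling.

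Levels are in FPKM, a fragment count corrected for transcript length and sequencing depth, so levels of different genes can be set side by side. Yy1 itself stood at 2.03 FPKM in the iKO and 55.2 FPKM in the WT library of ASC, and at 20.1 FPKM in the iKO and 51.0 FPKM in the WT library of FISC. Of 10 satellite cell markers the summed level was 1235 FPKM in ASC iKO and 1479 in ASC WT, and 3185 in FISC iKO and 3403 in FISC WT, with none at 0. Among them Myod1 was at 598 and 698 FPKM in ASC iKO and WT (log2 ratio −0.22), but Pax7 at 6.19 and 28.3 FPKM (−2.03) and Cd34 at 45.1 and 103 FPKM (−1.18). Of 10 fibroblast markers the summed level was 20.7 FPKM in ASC iKO and 41.3 in ASC WT, and 427 in FISC iKO and 496 in FISC WT. The fibroblast receptor gene Pdgfra was at 0.344 and 0.827 FPKM in ASC iKO and WT, and at 1.14 and 1.11 FPKM in FISC iKO and WT. Other fibroblast markers stood higher in FISC iKO and WT: Dcn at 144 and 104 FPKM, Col3a1 at 134 and 162, Dpt at 92.1 and 146, and Col1a1 at 42.9 and 68.6. Lum, Ly6a and Clec3b lay between 2.18 and 6.52 FPKM in that pair, and Pi16 and Mfap5 stayed under 1 FPKM in every library. Of 9 immune markers the sum was 16.9 FPKM in ASC iKO and 4.52 in ASC WT, 12.0 in FISC iKO and 11.5 in FISC WT, and Ptprc, carried by all white blood cells, was listed at 0 in both ASC libraries. The macrophage-related markers Cd68 (5.16 and 1.36 FPKM) and Cd14 (9.75 and 2.80 FPKM) were higher in ASC iKO than in ASC WT, with log2 ratios of 1.38 and 1.499. Higher too were Cd79a (1.28 and 0.287 FPKM), Lyz2 (0.554 and 0) and Cd3e (0.156 and 0). The remaining immune markers were at or near 0 in ASC iKO and WT: Adgre1 at 0 in both, Csf1r at 0 and 0.0535 FPKM, and Itgam at 0.0221 and 0.0146 FPKM. The low FPKM steps of the files put the ASC iKO library at 0.664 reads per WT read and the FISC iKO library at 1.01, from a step shared by 8.26% and 16.2% of low genes, and total depth is unknown.

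Most of the family was at or near 0. Of the 79 genes, 47 stayed under 1 FPKM in all 4 libraries and 17 of these were listed at 0 in every one, 11 peaked between 1 and 5 FPKM, and 21 reached 5 FPKM in at least 1 library. Those 21 were 4 MMPs, 7 ADAMs, 7 ADAMTS genes and 3 TIMPs. Under 1 FPKM throughout were 24 ADAMs: Adam1b, Adam2, Adam3, Adam4, Adam5, Adam6a, Adam6b, Adam7, Adam11, Adam18, Adam20, Adam21, Adam23, Adam24, Adam25, Adam26a, Adam26b, Adam28, Adam29, Adam30, Adam32, Adam33, Adam34 and Adam39, many of them known from testis or sperm. The same held for Adamts3, Adamts13, Adamts16, Adamts17, Adamts18 and Adamts19, for Timp4, and for 16 MMPs (Mmp1a, Mmp1b, Mmp7, Mmp8, Mmp9, Mmp10, Mmp12, Mmp13, Mmp16, Mmp17, Mmp20, Mmp21, Mmp24, Mmp25, Mmp27 and Mmp28). Mmp9, a gelatinase, reached only 0.497 FPKM in ASC iKO and 0.418 in ASC WT, while Mmp2, the other gelatinase, was among the highest members. The top member was Timp1 in both ASC libraries, holding 46.7% of the summed FPKM of all members in ASC iKO and 32.8% in ASC WT. In FISC it was Mmp2 in the iKO library, with 15.3% of the sum, and Adamts4 in the WT library, with 14.7%.

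**Figure D1:**
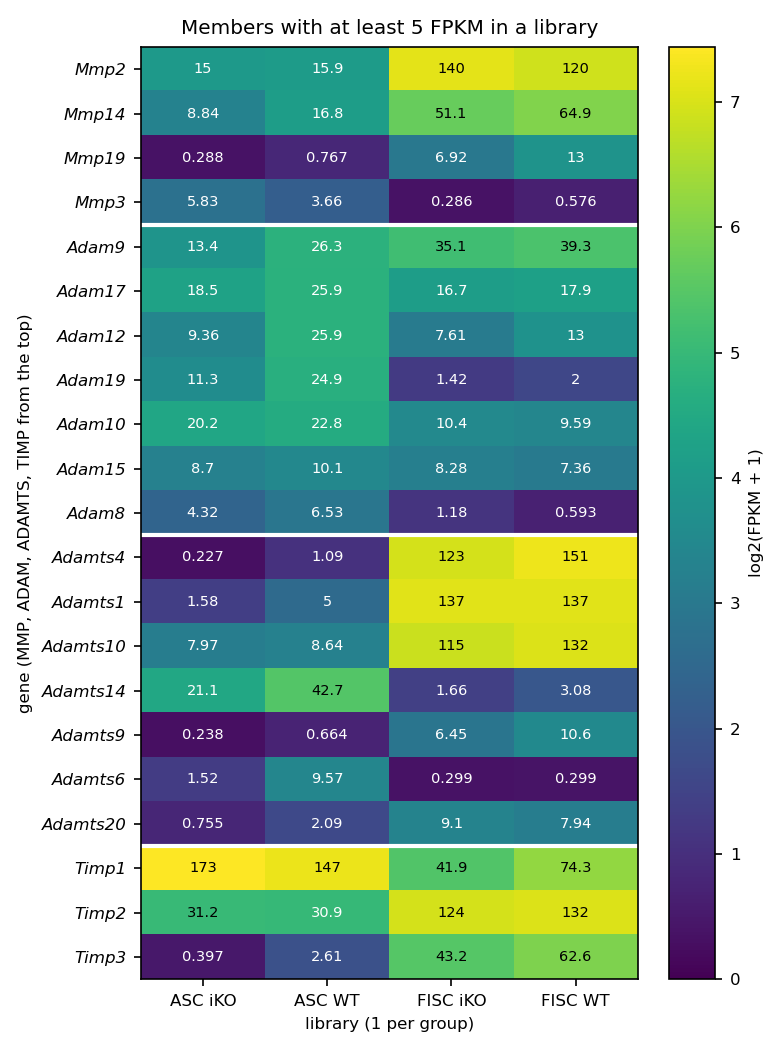
FPKM of the 21 members that reached 5 FPKM, by library (columns, 1 library each), with the FPKM printed in each cell and the colour giving log2(FPKM + 1). Adamts4, Adamts1, Adamts10, Mmp2, Timp2 and Timp3 are brighter in both FISC libraries than in either ASC library, and Adamts14, Adam19 and Timp1 are brighter in both ASC libraries than in either FISC library.

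RefSeq windows of 300 bases (GRCm38.p6, 250 before and 50 after the start) were found for 49 of the 79 members, 54 windows in all. The AP-1 motif TGANTCA, searched on both strands, stood in 24.1% of the member windows and in 7.81% of 32851 windows of all genes. TATAAA, on either strand, stood in 25.9% of member windows and 13.6% of all, and both motifs together in 16.7% and 1.54%. These shares rest on members at low level: of 24 windows of members that reached 1 FPKM, 2 held the AP-1 motif and 2 held TATAAA. The E-box CAGCTG stood in 16.7% of member windows and 16.3% of all. The windows with both belonged to Adam29 and to 8 of the 10 MMP genes that lie side by side on chromosome 9 (mm9, 7272513 to 7699416, 427 kb): Mmp13, Mmp12, Mmp1b, Mmp1a, Mmp3, Mmp10, Mmp20 and Mmp7, neighbours that are not independent of one another. The YY1 core motif GCCATNTT, on either strand, was found in 1 member window, that of Adam17 (1.85% of member windows and 6.05% of all). A match describes letters in this window and does not show binding.

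The stretches below are from those windows, 5′ to 3′, with 100 bases before and 20 after the start, or for Adam17 the 120 bases before it. The first 3 show the shared AP-1 and TATA letters of the chromosome 9 cluster, Adamts1 a TATA window of a gene seen in fresh cells, Adamts14 a window with none of the motifs searched (76.7% G and C over 300 bases, 88.3% in the stretch printed), and Adam17 the YY1 core. Capitals mark motif matches.

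Mmp3 (chr9:7445722-7445841, plus strand): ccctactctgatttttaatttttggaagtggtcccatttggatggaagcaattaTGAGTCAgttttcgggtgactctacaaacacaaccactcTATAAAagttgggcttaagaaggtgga

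Mmp10 (chr9:7502242-7502361, plus strand): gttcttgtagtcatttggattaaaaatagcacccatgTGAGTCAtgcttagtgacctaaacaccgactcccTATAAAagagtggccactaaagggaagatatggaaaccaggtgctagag

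Mmp13 (chr9:7272414-7272533, plus strand): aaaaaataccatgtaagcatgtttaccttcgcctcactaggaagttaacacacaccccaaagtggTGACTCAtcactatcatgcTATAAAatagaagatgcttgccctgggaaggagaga

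Adamts1 (chr16:85803094-85803213, minus strand): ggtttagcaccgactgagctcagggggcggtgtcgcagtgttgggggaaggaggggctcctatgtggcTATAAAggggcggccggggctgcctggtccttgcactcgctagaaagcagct

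Adamts14 (chr10:61273400-61273519, minus strand): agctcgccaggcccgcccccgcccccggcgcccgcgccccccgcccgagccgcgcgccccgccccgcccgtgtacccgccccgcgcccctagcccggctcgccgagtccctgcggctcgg

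Adam17 (chr12:21373633-21373752, minus strand): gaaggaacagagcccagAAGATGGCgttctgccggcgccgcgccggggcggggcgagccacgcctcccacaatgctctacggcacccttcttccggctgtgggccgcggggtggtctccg

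The activated pair asked how the protease genes differ without Yy1 after 36 h in culture. Most measured members were lower in the iKO library and none was 2-fold higher. Of 24 members with at least 1 FPKM in either library, 5 were lower by 2-fold or more (20.8%), against 8.26% of all 11215 genes measured, and 0 were higher by as much, against 8.74%. With single libraries, passing 2-fold states a size only. The ratio is log2((iKO FPKM + 1)/(WT FPKM + 1)), which understates the change of low genes. The median of the members was −0.61 and that of all genes 0.00. Below 0 lay 19 of the 24 members and 5626 of the 11215 genes. In bulk RNA, fewer cells of a type and less RNA per cell cannot be told apart. With both libraries scaled to the same FPKM sum, Mir762 left out, the median of all genes moved by −0.48, and 167 genes were higher and 2445 lower in place of 980 and 926, while members numbered 0 and 11. In the same pair 3 of 10 satellite cell markers were lower by 2-fold or more (median −0.50), as were 2 of 5 measured fibroblast markers (median −0.25), while 2 of 3 measured immune markers were higher (median 1.38). The part of these cell types in the members' ratios was not tested.

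Every ADAMTS gene measured in ASC was lower in the iKO library, 8 of 8, with a median log2 ratio of −0.89. Of all 11215 genes measured there, 5626 were lower. Adamts6 (chromosome 13, 105077952 to 105284843, mm9) stood at 1.52 FPKM in ASC iKO and 9.57 FPKM in ASC WT, a log2 ratio of −2.07 and the lowest of all members. It encodes a secreted protease known for its part in heart development. Adamts14, a procollagen N-proteinase that trims fibrillar collagen, stood at 21.1 FPKM in ASC iKO and 42.7 FPKM in ASC WT. Its ratio was just inside 2-fold with 1 FPKM added (−0.98) and just past it with 0.1 FPKM added (−1.01). Adamts1, which cuts versican and aggrecan, stood at 1.58 and 4.999 FPKM in ASC iKO and WT (−1.21). The libraries thus differed at both the highest and the lower levels of this subfamily. Adamts7, which cuts cartilage oligomeric matrix protein, was at 1.29 FPKM in ASC iKO and 3.46 in ASC WT (−0.96). Adamts20, a versican-cutting protease, was at 0.755 and 2.09 FPKM (−0.82), Adamts4 at 0.227 and 1.09 FPKM (−0.77) and Adamts8 at 1.41 and 2.94 FPKM (−0.71), in ASC iKO and WT. Adamts10, which acts with fibrillin microfibrils, was the nearest to WT at 7.97 FPKM in ASC iKO and 8.64 in ASC WT (−0.10).

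The 7 measured sheddase-type ADAMs were likewise all below 0, as were 5626 of all 11215 genes. Their median was −0.50, and 2 of them were at least 2-fold lower, against 8.26% of all genes. Adam12 (chromosome 7, 141074882 to 141416780), which is induced in regenerating muscle, stood at 9.36 FPKM in ASC iKO and 25.9 FPKM in ASC WT, a log2 ratio of −1.38. Adam19, the closest relative of Adam12, stood at 11.3 and 24.9 FPKM in ASC iKO and WT (−1.07). Both belong to the ADAMs named meltrins, first described in muscle cells. Adam9, a further meltrin, was at 13.4 FPKM in ASC iKO and 26.3 in ASC WT (−0.92). The 2 best-known sheddases lay closer to WT: Adam17, which releases tumour necrosis factor and EGF receptor ligands, at 18.5 and 25.9 FPKM in ASC iKO and WT (−0.46), and Adam10, which cuts Notch receptors, at 20.2 and 22.8 FPKM (−0.17). Adam15 was at 8.70 and 10.1 FPKM (−0.19) and Adam8, known from white blood cells, at 4.32 and 6.53 FPKM (−0.50). Adam1a, from the sperm-fertility group, ran the other way at 3.50 FPKM in ASC iKO and 1.79 in ASC WT (0.69), and has a close copy in Adam1b. Adam17 shares part of its listed locus with Iah1, which was at 33.9 FPKM in ASC iKO and 17.3 in ASC WT.

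MMPs and TIMPs went in both directions in ASC. Mmp14, the membrane-type MMP that activates Mmp2, stood at 8.84 FPKM in ASC iKO and 16.8 FPKM in ASC WT (chromosome 14, 55050440 to 55060095; −0.85). Mmp2 itself was nearly level at 14.96 and 15.9 FPKM (−0.08), so Mmp14 stood at 0.591 of Mmp2 in ASC iKO and 1.06 in ASC WT. Mmp3, a stromelysin with a broad range of matrix substrates, was higher at 5.83 FPKM in ASC iKO and 3.66 in ASC WT (0.55, and 0.08 under sum scaling). Mmp11, another stromelysin, was at 3.81 and 2.95 FPKM (0.28) and Mmp15, a membrane-type MMP, at 2.08 and 2.68 FPKM (−0.26) in ASC iKO and WT. Over the 10 genes of the chromosome 9 cluster the summed level was 7.57 FPKM in ASC iKO and 5.09 in ASC WT, most of it Mmp3. Within the cluster Mmp13, a collagenase, was at 0.952 and 0.845 FPKM, and Mmp10, a stromelysin, at 0.633 and 0.509 FPKM in ASC iKO and WT.

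Among the inhibitors, Timp3 alone passed 2-fold. It stood at 0.397 FPKM in ASC iKO and 2.61 FPKM in ASC WT, a log2 ratio of −1.37. Timp3 is the TIMP that binds to the matrix and is known to block Adam17 and aggrecanases. Timp1 was at 173 FPKM in ASC iKO and 147 FPKM in ASC WT, with a log2 ratio of 0.23 that turned to −0.33 under sum scaling. Timp2 was level at 31.2 and 30.9 FPKM in ASC iKO and WT (0.02, and −0.04 and −0.53 under upper-quartile and sum scaling). The TIMP sum was 5.27 times the MMP sum in ASC iKO and 3.97 times in ASC WT. Timp1 and Timp3 lie within introns of synapsin genes, and the table lists them at the same locus as these: Syn1 was at 0.425 and 0.704 FPKM and Syn3 at 0 in ASC iKO and WT. The Timp1 locus as listed also overlaps Araf, a kinase gene, at 21.7 FPKM in ASC iKO and 26.4 in ASC WT. Their listed loci of 72.4 and 450 kb are therefore not the lengths of Timp1 and Timp3.

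**Figure D2:**
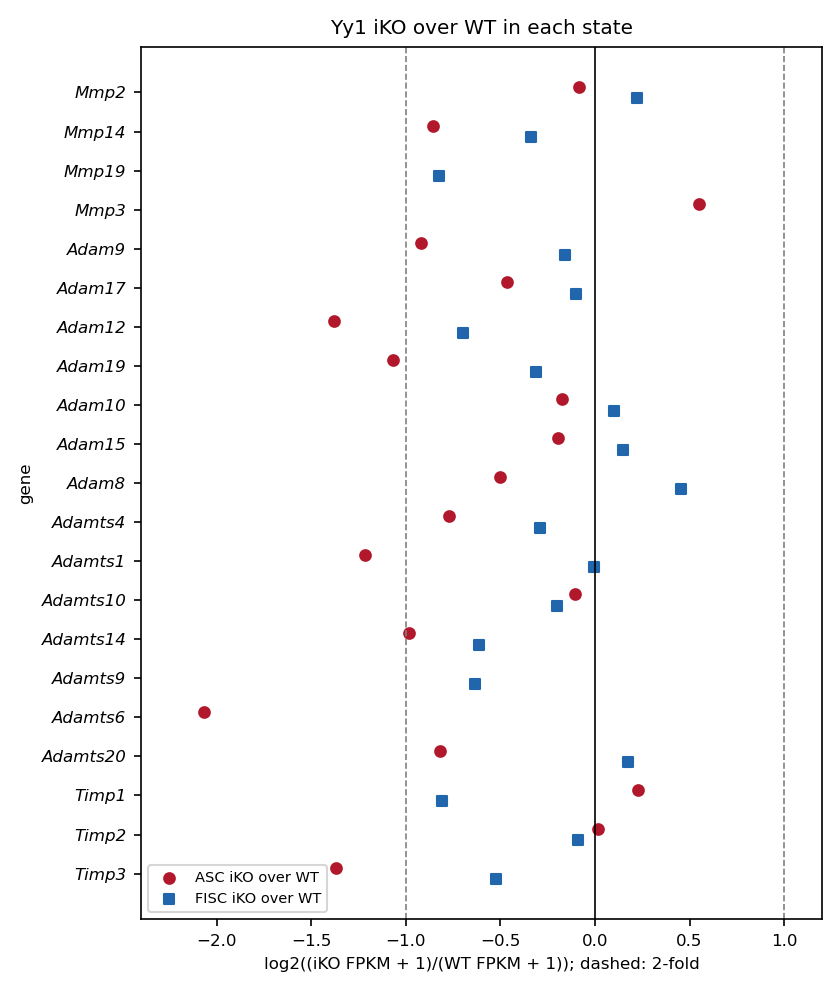
Log2 ratio of FPKM + 1, iKO over WT, for the 21 members that reached 5 FPKM (rows), in ASC (circles) and FISC (squares), 1 library per group; a symbol is missing where neither library reached 1 FPKM, and dashed lines mark 2-fold. Adamts6, Adam12, Timp3, Adamts1 and Adam19 lie beyond the lower line in ASC, and no square lies beyond either line.

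Locus length moved with the ratio in ASC. Across all 11215 genes, the decile of shortest loci (median 2.81 kb) had a median log2 ratio of 0.67 and the decile of longest (184 kb) −0.48. Adam1a, the 1 measured member in the shortest decile, had a ratio of 0.69, near the median of that decile. Of the 5 members past 2-fold, Adamts6, Adam12 and Timp3 (by the locus it shares with Syn3) lie in the longest decile and Adam19 in the next, whereas Adamts1 lies in decile 3 with a listed locus of 9.29 kb. Measured from the median of its own decile, a step chosen after the data were seen, Adamts6 stood at −1.59 and Adamts1 at −1.47. On that scale Adam12 (−0.90) and Adam19 (−0.65) were within 2-fold, and the short-locus genes Mmp14 (−1.11) and Adamts4 (−1.02) passed it. Timp3 came to −0.89, but by the length of a locus that is not its own, so this value is not read. The median of the 24 members was −0.51 on this scale. How much of each ratio goes with length was not tested further.

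**Figure D3:**
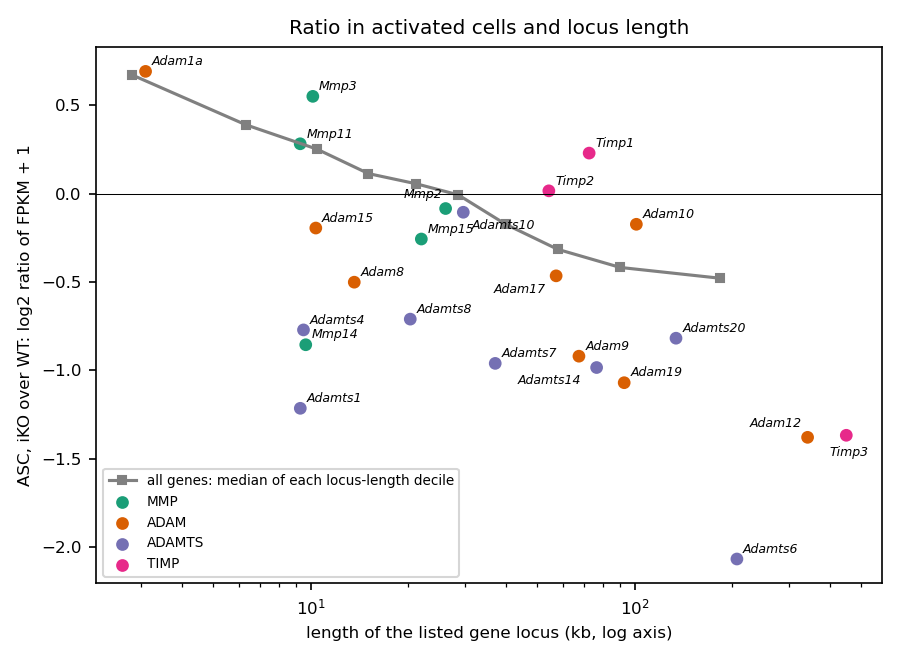
Log2 ratio in ASC (iKO over WT, FPKM + 1) against the length of the listed locus in kb (log axis) for the 24 measured members (coloured by family), with the median of all genes in each locus-length decile as grey squares. Adamts1, Mmp14, Adamts4 and Adamts6 lie far below the grey line, while Mmp3 and Adam10 lie above it. The TIMPs are placed by loci shared with other genes, so their position against the line is not read.

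In freshly isolated cells members differed little between the genotypes, and so did genes at large. Yy1 was at 20.1 FPKM in the FISC iKO library, and its part in the ratios was not tested. Of 29 measured, none passed 2-fold: 0 were higher, against 0.677% of 11229 genes, and 0 were lower, against 0.721%. At such shares these counts do not set the members apart. The median log2 ratio of the members was −0.11 and that of all genes 0.00, with standard deviations across genes of 0.396 and 0.389. The lowest were Mmp19, a secreted MMP, at 6.92 FPKM in FISC iKO and 13.0 in FISC WT (−0.82), and Timp1, at 41.9 and 74.3 FPKM (−0.81). Adam12 was at 7.61 FPKM in FISC iKO and 13.0 in FISC WT (−0.70), lower in the iKO library in both states. Adamts9, an aggrecanase, was at 6.45 and 10.6 FPKM (−0.64), Adamts14 at 1.66 and 3.08 FPKM (−0.61) and Timp3 at 43.2 and 62.6 FPKM (−0.52) in FISC iKO and WT. The highest ratios belonged to Mmp23 at 1.11 FPKM in FISC iKO and 0.280 in FISC WT (0.72) and Mmp11 at 2.91 and 1.52 FPKM (0.63), both at low level. All 3 measured TIMPs lay below 0, as did 10 of 12 ADAMTS genes, but 5 of 9 ADAMs and 3 of 5 MMPs lay above. Of all 11229 genes, 5658 lay below 0 and 5571 above. The 8 measured fibroblast markers had a median of −0.25 in the same pair, and their part in these differences was not tested.

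Abundant members of fresh cells were close between the genotypes. Adamts1 was at 137 FPKM in both FISC libraries (log2 ratio 0.00). Adamts4, an aggrecanase, was at 123 FPKM in FISC iKO and 151 in FISC WT (−0.29), Adamts10 at 115 and 132 FPKM (−0.20), and Adam9 at 35.1 and 39.3 FPKM (−0.16). Mmp2 was at 140 FPKM in FISC iKO and 120 in FISC WT (0.22), Mmp14 at 51.1 and 64.9 FPKM (−0.34) and Timp2 at 124 and 132 FPKM (−0.09). Adam17 was at 16.7 FPKM in FISC iKO and 17.9 in FISC WT (−0.10). Adam10 was at 10.4 and 9.59 FPKM (0.10), Adam15 at 8.28 and 7.36 FPKM (0.15) and Adam19 at 1.42 and 2.00 FPKM (−0.31) in FISC iKO and WT. Adamts20 was at 9.10 FPKM in FISC iKO and 7.94 in FISC WT (0.17). For Adamts1 the ratio was thus −1.21 in ASC and 0.00 in FISC, and the difference between states was not tested. Adamts6 was at 0.299 FPKM in both FISC libraries and Mmp3 at 0.286 FPKM in FISC iKO and 0.576 in FISC WT, too low for a ratio.

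Culture went with far larger changes of level than the genotype did. Here ASC was set over FISC of the same genotype after scaling to the same upper quartile, and since the 2 tables may have been normalized separately, the ratios are description only. In iKO, 4 of 32 measured members were higher in ASC by 2-fold or more (12.5%, against 23.1% of 11797 genes) and 16 were lower (50%, against 26.7%). In WT, 6 of 30 were higher (20.0%, against 21.8% of 11816 genes) and 13 lower (43.3%, against 21.6%). The share of members that were lower was above that of all genes in both genotypes, and in WT the share that were higher was near it. The medians were −0.99 in iKO and −0.75 in WT, where all genes had −0.02 and 0.08. With FPKM as deposited the median of all genes moved up by 0.41 in iKO and 0.32 in WT. The genes counted became 3980 higher and 2427 lower in iKO (2728 and 3152 with upper quartiles) and 3667 and 2027 in WT (2575 and 2553). Members then numbered 5 higher and 15 lower in iKO, and 7 and 13 in WT. Scaling to the FPKM sum with Mir762 kept in, which held 39.8% of the ASC iKO sum, gave 1335 genes higher and 4642 lower in iKO. Members then numbered 3 and 16. In WT, where Mir762 was at 0, the genes were 4035 and 1898, with 9 and 13 members. With Mir762 left out of the sum, 2689 genes were higher and 3185 lower in iKO, close to the counts with upper quartiles.

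Proteoglycan-cleaving ADAMTS genes were mostly lower in culture, as were members of other groups. Of their 7 measured members, 7 were at least 2-fold lower in iKO and 6 in WT, against 26.7% and 21.6% of all genes. Their summed level was 4.31 FPKM in ASC iKO and 11.9 in ASC WT, against 287 in FISC iKO and 319 in FISC WT. Adamts4 (chromosome 1, 173180552 to 173190053), at 151 FPKM in fresh WT cells, had a log2 ratio of −6.74 in iKO and −6.36 in WT. Adamts1 followed at −6.01 in iKO and −4.83 in WT, and Adamts20, at 9.10 FPKM in FISC iKO and 7.94 in FISC WT, at −2.71 and −1.77. Adamts9 stood at −2.67 in iKO and −2.93 in WT, with 0.238 and 0.664 FPKM left in ASC iKO and WT. Adamts5, the chief aggrecanase of mouse cartilage, was at 0.101 and 0.133 FPKM in ASC iKO and WT, against 3.76 and 3.94 FPKM in FISC iKO and WT. Adamts15, counted among the lower genes, was listed at 0 in both ASC libraries, so no fold is given, and stood at 4.16 FPKM in FISC iKO and 4.57 in FISC WT. Outside this group Adamts10 had −4.10 in iKO and −4.11 in WT. Adamts2, a procollagen N-proteinase, was at 0.135 and 0.239 FPKM in ASC iKO and WT, and at 1.38 and 2.15 FPKM in FISC iKO and WT.

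The gelatinase axis and 2 of the TIMPs were lower too. Mmp2 had −3.58 in iKO and −3.18 in WT, its activator Mmp14 −2.82 and −2.24, and Mmp19 −2.71 and −3.14. Timp2, which also takes part in the activation of Mmp2 by Mmp14, had −2.41 in iKO and −2.42 in WT. Timp3 had −5.10 in iKO and −4.40 in WT. Timp1 alone of the TIMPs was higher in culture, at 1.55 in iKO and 0.61 in WT. It passed 2-fold in iKO. Under scaling to the FPKM sum with Mir762 kept in, Timp1 passed in WT (1.09) and not in iKO (0.80). With Mir762 left out of the sum, Timp1 passed in both. Within the TIMP sum, Timp1 made up 84.5% in ASC iKO and 81.4% in ASC WT, but 20.0% in FISC iKO and 27.6% in FISC WT. Fibroblast markers were lower by a median of −2.89 in iKO and −2.31 in WT over the same libraries, and satellite cell markers by −2.80 and −2.03. Every other marker list had medians below 0 too. They were, in iKO and WT, −1.11 and −1.25 for endothelial and −0.52 and −1.13 for immune markers. Pericyte and smooth muscle markers had −2.11 and −1.55, tenocyte markers −2.09 and −2.26, and Schwann markers −2.22 and −1.96. Whether loss of other cells contributes to the lower protease levels was not tested.

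Higher in culture were the procollagen proteinase Adamts14, the meltrin Adam19 and the stromelysin Mmp3, in both genotypes. Adamts14 had log2 ratios of 2.60 in iKO and 3.06 in WT, Adam19 of 1.92 and 2.76, and Mmp3 of 2.01 and 1.28. Adamts6 was at 0.69 in iKO but 2.69 in WT, Adam8 at 0.91 in iKO and 1.93 in WT, and Mmp15 at 0.39 in iKO and 1.08 in WT. These 3 ratios passed 2-fold in WT and not in iKO, but in iKO Adam8 passed it with a pseudocount of 0.1 (1.32) or FPKM as deposited (1.29), and Adamts6 with a pseudocount of 0.1 (1.58). The difference between the genotypes was not tested. The sheddases Adam10 (0.45 in iKO and 0.82 in WT), Adam17 (−0.30 and 0.16) and Adam15 (−0.35 and 0.08) stayed within 2-fold. Adam12 had −0.16 in iKO and 0.59 in WT. Adam9 was the 1 ADAM at least 2-fold lower, at −1.76 in iKO, with −0.92 in WT.

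**Figure D4:**
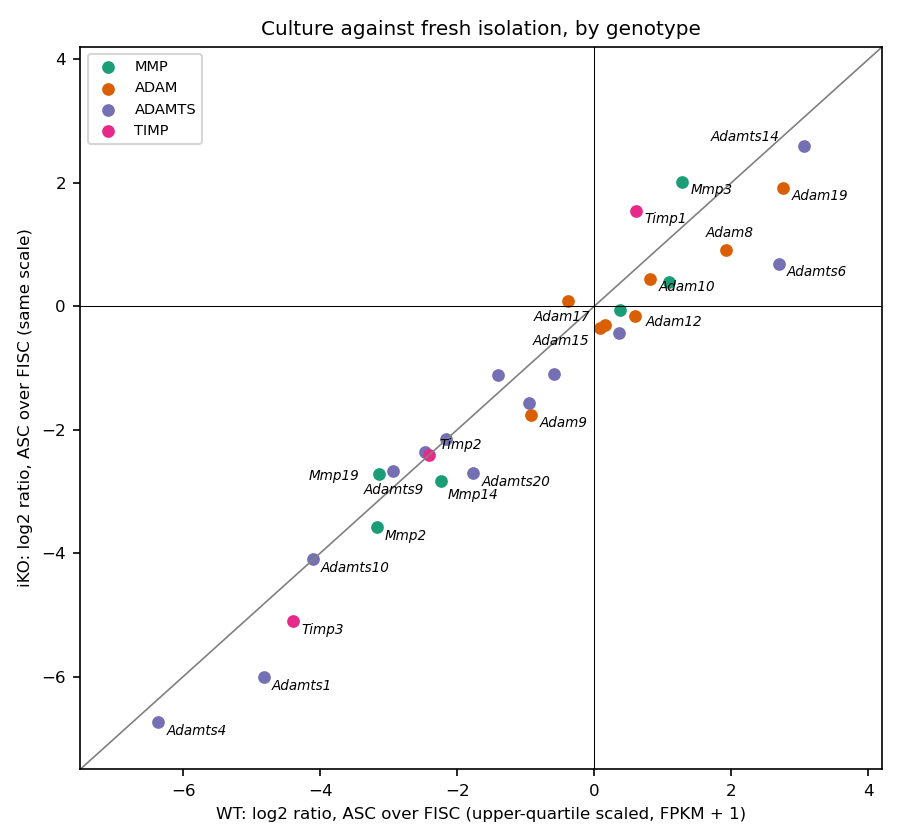
Log2 ratio of ASC over FISC in iKO (vertical) against WT (horizontal) for members measured in both, after upper-quartile scaling and adding 1 FPKM, coloured by family; the grey line marks equal ratios and genes that reached 5 FPKM are named. Adamts4, Adamts1, Timp3 and Adamts10 lie at the lower left, Adamts14 and Adam19 at the upper right, and Adamts6 lies below the line at 0.69 in iKO and 2.69 in WT.

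The other 11 measured members never reached 5 FPKM. Of these, Adam22, a neural ADAM without protease activity, was at 0.157 and 0.0815 FPKM in ASC iKO and WT, against 1.05 and 0.859 FPKM in FISC iKO and WT. Adamts12 was at 0.0658 and 0.413 FPKM in ASC iKO and WT, and at 2.099 and 1.57 FPKM in FISC iKO and WT. Adamts8 stood at 3.32 and 3.93 FPKM, Adamts7 at 1.61 and 1.86 FPKM and Adam1a at 2.30 and 2.11 FPKM in FISC iKO and WT. Mmp15 was at 0.902 and 0.452 FPKM in the same pair. These levels are close to the 1 FPKM filter, where a pseudocount of 1 hides most of a ratio.

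Companion genes of the same pathways were listed without regard to their ratios in this work, though with earlier results of the series known. Of 18 measured inhibitors, activators and partners of metalloproteases, 2 were at least 2-fold lower and 1 higher in ASC iKO, near the shares of all genes (8.26% and 8.74%). Reck, a membrane-anchored MMP inhibitor, was at 0.280 FPKM in ASC iKO and 2.08 in ASC WT (−1.26), and Thbs1, a matrix glycoprotein, at 49.7 and 133 FPKM (−1.40). Tspan17, a tetraspanin partner of Adam10, was at 6.77 and 2.54 FPKM (1.14), and Furin, which activates many of these precursors, at 23.9 and 41.9 FPKM in ASC iKO and WT (−0.78). In the plasminogen system 0 of 7 passed 2-fold in either direction, with a median of −0.34 in ASC. Zinc proteases of other families had 0 of 3 past 2-fold and Adamts-like genes had none measured in ASC. In FISC the only passing gene of these lists was Tfpi2, a serine protease inhibitor, at 31.0 FPKM in iKO and 66.0 in WT (−1.07).

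Of 19 measured substrates of ADAM shedding, 3 were at least 2-fold lower (8.26% of all genes) and 1 higher (8.74%) in ASC iKO, with a median of −0.74. Cdh2, N-cadherin, stood at 14.7 FPKM in ASC iKO and 39.4 in ASC WT (−1.37), Vcam1 at 27.6 and 62.2 FPKM (−1.14) and App at 21.1 and 46.8 FPKM (−1.12). Areg, the EGF receptor ligand amphiregulin released by Adam17, was higher at 23.2 and 8.28 FPKM in ASC iKO and WT (1.38). The Notch receptors cut by Adam10 lay below 0, within 2-fold after adding 1 FPKM. In ASC iKO and WT, Notch1 was at 4.22 and 8.54 FPKM (−0.87), Notch2 at 9.45 and 18.7 FPKM (−0.92) and Notch3 at 1.44 and 3.53 FPKM (−0.89). Without the added 1 FPKM, Notch1 and Notch3 were past 2-fold. In FISC, Cd44 was the 1 of 19 at least 2-fold lower (0.721% of all genes), at 44.2 FPKM in iKO and 108 in WT (−1.27). Among proteoglycans cut by ADAMTS proteases, 1 of 3 measured in ASC was 2-fold lower, Bgn at 35.3 and 77.4 FPKM in ASC iKO and WT (−1.11), while versican, Vcan, was at 5.48 and 7.17 FPKM (−0.33).

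Few members had a YY1 peak, and few genes did overall. Of the 79 members, 1 had a deposited peak summit within 2 kb of either end of its listed locus, when 3.64% of 24067 genes did. That gene was Mmp12, listed at 0 in ASC iKO and 0.0769 FPKM in ASC WT. The summit lies inside its locus, 1358 bases from the end at 7360461, with the authors' fold of 4.57 and −log10 q of 1.07. Since the RefSeq windows of Mmp12 are on the plus strand, that is the 3′ end and not the start. The strongest peak near a member lies at chromosome 1, 173177182 to 173177473 (mm9), its summit 3152 bases outside the Adamts4 locus, with a fold of 14.1, a −log10 q of 24.6 and score rank 14 among 2031 peaks. With the whole locus counted, 5 of the 79 members had a summit, near the share of all genes (6.94%). Inside longer loci lay a summit each at Adamts2, Adam4, Adamts16 and Timp3, with −log10 q between 0 and 1.07, the one at Timp3 29786 bases from the nearer end of a locus shared with Syn3. None of the 5 members at least 2-fold lower in ASC had a summit within 2 kb of a locus end. Adam17, whose window holds the YY1 core letters shown above, had no deposited summit inside its locus or within 20 kb of its ends.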

How the data were processed

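The deposited expression values are FPKM made by the authors, in 1 table for ASC and 1 for FISC, per the file headers. Per the submitters' processing notes, the build was mm9 and the tools included MACS2 2.1.0, TopHat2 and Cufflinks 2.2.1, with no role attached to any. The sources used here do not give strand, annotation or scaling. The deposited peak list, in the narrowPeak layout, gives the authors' score (the truncated 10-fold −log10 p), fold, −log10 p and −log10 q per peak, from 1 immunoprecipitation and 1 input. Columns were matched by the state in the table and the genotype in the header. Total depth is unknown; relative depth was read from ratios of genes at 0.3 FPKM or less.

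Ratios were computed in Python 3.11.15 (pandas 2.3.3) as log2 of FPKM + 1 for genes with at least 1 FPKM in 1 of the 2 libraries, and counted at 2-fold. Upper quartiles (percentile 75, genes above 0 in both) scaled ASC to FISC. Scaling to the FPKM sum was not used there, because Mir762 held 39.8% of the sum in ASC iKO. The counting was tested on simulated data. Members with 5 FPKM are given in full, others by count and range; Furin, Reck, Vcan, the Notch receptors and genes sharing a locus were named after their values were seen. The members, lists and rules were chosen with earlier results of these data known. Promoters are RefSeq windows (GRCm38.p6), not converted to mm9. The locus of Adam4 and of Mmp11 differed between the tables, and the ASC one was used. Alternatives were another pseudocount, filter, fold, scaling, peak window and q, leaving out overlapping loci, and centring on locus length.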

Additional observations from a re-analysis of the deposited data

Results flagged for a closer look

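For 2 members the ratio lay clearly above 1 in one group and below 1 in the other, and neither difference was tested. Adam8 was lower in ASC iKO than in ASC WT (4.32 and 6.53 FPKM) and higher in FISC iKO than in FISC WT (1.18 and 0.593 FPKM), so the log2 ratio in ASC minus that in FISC was −0.95. The FISC values are near 1 FPKM. Adamts7 was lower in ASC than in FISC in iKO (log2 ratio −0.44) and higher in WT (0.36), a difference of −0.80 between iKO and WT. It stood at 1.29 and 3.46 FPKM in ASC iKO and WT, and at 1.61 and 1.86 FPKM in FISC iKO and WT.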

How the results depend on the processing

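Among members that reached 5 FPKM, no direction past 2-fold reversed under any alternative run. Members below that level were not followed gene by gene. Counts in ASC, iKO over WT, depended most on the choices. In place of 5 of 24, members at least 2-fold lower were 10 of 24 with a pseudocount of 0.1 and 11 of 24 under sum scaling without Mir762. They were 3 of 15 with a 5 FPKM filter, 3 of 18 without members whose locus overlaps another gene, and 12 of 24 (1 higher) at 1.5-fold. The median of −0.61 became −0.75, −0.97, −0.46 and −0.74 under the first 4 of these in order. Centring on locus length took 3 calls (Adam12, Adam19 and Timp3) and added 2. The loss of the Timp3 call is not read, because the listed length belongs to a locus shared with Syn3. In FISC, 1 of 29 members was higher with a pseudocount of 0.1, and 2 were higher and 5 lower at 1.5-fold, in place of 0 and 0. Shares of all genes were not counted with a pseudocount of 0.1, the 5 FPKM filter or 1.5-fold. Member counts under those settings therefore do not set the members apart. For culture in iKO the median of −0.99 became −1.73 with a pseudocount of 0.1, −2.41 with the 5 FPKM filter, −0.83 as deposited and −1.10 without overlapping loci, where 2 members were higher in place of 4. In WT the median of −0.75 became −0.85, −1.34, −0.44 and −0.92 under these in order, and −0.35 under either sum scaling. Without a filter, which adds members at or near 0, the 4 medians were −0.035 in iKO culture and 0 in WT culture, ASC and FISC. Members with a YY1 peak numbered 2 with a 5 kb window (4.86% of all genes), 0 with a −log10 q of at least 10 (0.407%) and 5 when the whole locus counted (6.94%), in place of 1 (3.64%). Among single members that reached 5 FPKM, 499 values kept their side of 2-fold, 20 came to pass it and 4 no longer did. No paired analysis was possible because the labels carry no replicate numbers and each group is 1 library. FPKM gives no depth, so no interval was computed.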
